A study of Mus musculus with 31 samples.

Results

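Chemokine and chemokine receptor genes were followed in the kidneys of wild-type mice and of Pcy mice with polycystic kidney disease. Genes were taken by symbol, as every gene named Ccl, Cxcl, Cx3cl, Xcl, Ccr, Cxcr, Cx3cr, Xcr or Ackr with a number, and kept where at least 10 reads were counted in at least 5 libraries. Of 61 such symbols among 23509 genes, 43 met this minimum. They comprised 16 CC ligands, 13 ligands of the CXC, CX3C and XC classes, 6 CC receptors, 6 receptors of the other classes and 2 atypical receptors. RNA-seq was run on whole-kidney RNA of 31 mice harvested at 30 weeks of age. The wild-type group was 5 untreated male CD1 mice. The Pcy/CD1 mice were injected subcutaneously from 5 weeks of age for 25 weeks, 12 with PBS and 14 with RGLS4326 at 25 mg/kg, an oligonucleotide that inhibits the microRNA miR-17. RGLS4326 was given monthly, while the sample label gives the PBS schedule as weekly and the treatment description as monthly. Pcy mice carry a recessive cystic disease allele in every cell and develop cysts slowly. The wild-type mice were not injected, so the cystic genotype and the injections cannot be told apart in any comparison with them.

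Chemokines are small secreted proteins that guide migrating leukocytes, and their classes are named after the spacing of conserved cysteines near the start of the mature protein. Their receptors signal through inhibitory G proteins to the cytoskeleton and to integrins, while atypical receptors bind chemokines without that signal and remove them. In the kidney, tubular epithelium, endothelium, fibroblasts and resident macrophages are known sources of ligands, and monocytes, macrophages, dendritic cells and lymphocytes carry most of the receptors.

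For the 18 symbols below the minimum the level could not be compared between groups. Ccl19, Ccl21a, Ccl21b, Ccl21c, Ccl26 and Ccl27b were at 0 counts in all 31 libraries. The Ccl19, Ccl21 and Ccl27 genes have near-identical copies, and reads that fit several places were not counted, so their level is uncertain. The other symbols never exceeded 11 counts in a library. They included Ccr10 (highest count 9), Ccr3 (4), Ccr4 (9), Ccr8 (7), Cxcr1 (2), Cxcr2 (10) and Cxcl3 (5), so the receptors of several ligands described here were at the limit of detection.

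Between 14892524 and 27459962 reads per library fell on genes, with a median of 19961466, so 10 reads were roughly the lowest level that could be compared. One treated library stood apart. RGLS4326 mouse 9 was the lowest treated mouse in 33 of the 43 members and lay within the wild-type range in 31 of them, against 3 to 13 for the other treated mice and 3 to 9 for the PBS mice. Its 10 nephron and collecting duct markers summed to 18921 CPM (reads normalised to a common library size), inside the wild-type range of 18527 to 21486 and above the PBS range of 9744 to 14853. The library is kept under its label, and whether its genotype or label is right was not tested. The closest pair of replicates, wild-type mice 3 and 4, still differed by more than sampling noise, and both were kept. Library numbers in the deposited names restart within each group and divide the mice into 3 index series of 4, 4 and 4 PBS mice, 4, 5 and 5 treated mice and 2, 2 and 1 wild-type mice.

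**Figure D1:**
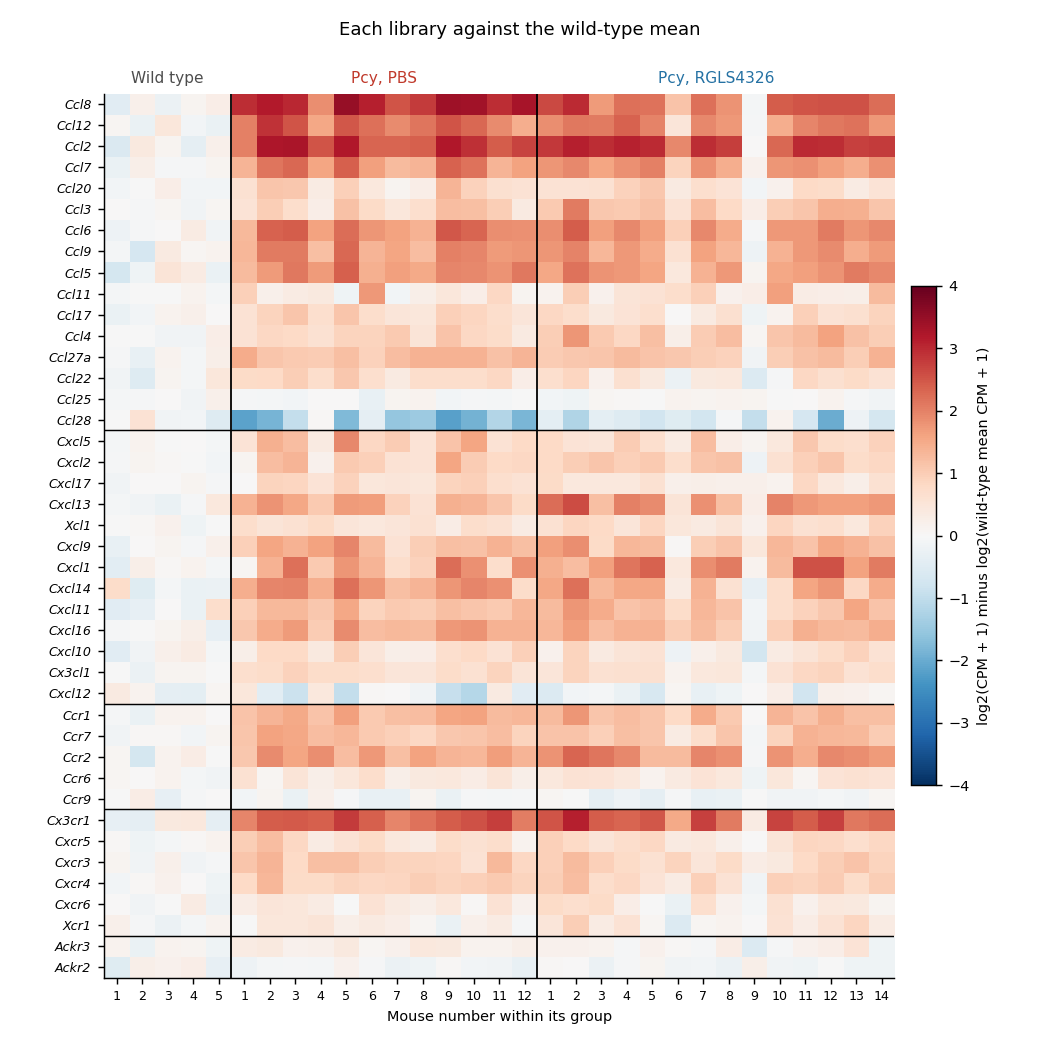
Each row is a member (1 not shown) and each column a mouse, grouped as wild type (5), Pcy with PBS (12) and Pcy with RGLS4326 (14). The colour is log2(CPM + 1) minus log2 of the wild-type mean CPM + 1, from blue (lower) to red (higher). Most rows are red in both Pcy groups, Ccl28 is blue, and treated mouse 9 is pale in nearly every row.

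The drug target is shown first, because a transcript freed from miR-17 can carry a match to its seed. The mature miRNA, from RefSeq on GRCm38.p6, is printed with its seed (bases 2 to 8) in capitals.
mmu-miR-17-5p: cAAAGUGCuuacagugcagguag
The match to that seed, GCACTTT, was searched in the annotated 3′UTR of the longest-UTR transcript of each gene. Matches to only part of the seed were not searched. It was present in 1 of the 43 members (2.33%) and in 1932 of 13826 tested genes with a 3′UTR (14%). The members' 3′UTRs had a median of 996.0 bases and those of all tested genes 1144.5 bases. The member was Cxcr6, a receptor of tissue-resident T and NKT cells, with the match on the plus strand of chr9:123811212-123811218 (GRCm38), shown in capitals within its flanks.
Cxcr6 3′UTR site: attttgaaGCACTTTctctcttt
Cxcr6 averaged 2.33 CPM in PBS mice and 2.41 CPM in treated mice, a log2 difference of 0.05 with a 95% interval from -0.24 to 0.35 (edgeR adjusted p = 0.817).

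Promoters are shown for the neutrophil chemokines Cxcl1 and Cxcl2 and the interferon-induced Cxcl10, which hold matches to known inflammatory motifs, and for Ccl8 and Ccl28, the members that differed with treatment. RefSeq (GRCm38.p6) gave a single promoter of 300 bases around the start site, most of it upstream, for 28 members. The kappa B consensus of NF-kappa B was found on either strand in 7 of these 28 (25%; Ackr2, Ccl20, Ccl9, Ccr1, Cxcl1, Cxcl10 and Cxcl2) and in 8.18% of all 27025 promoters. GAAANNGAAA, a paired half-site of interferon response elements, was in 2 of the 28 (Cxcl10 and Cxcl14) and in 3.49% of all promoters. The third motif searched was in 2 of the 28 (7.14%) and in 8.47% of all promoters. Ccl8 and Ccl28 held no match in this window. Capitals mark the matches, and kappa B matches that start 1 base apart in Cxcl1, Cxcl2 and Cxcl10 are shown as a single run.
Cxcl1, chr5:90890995-90891294, plus strand: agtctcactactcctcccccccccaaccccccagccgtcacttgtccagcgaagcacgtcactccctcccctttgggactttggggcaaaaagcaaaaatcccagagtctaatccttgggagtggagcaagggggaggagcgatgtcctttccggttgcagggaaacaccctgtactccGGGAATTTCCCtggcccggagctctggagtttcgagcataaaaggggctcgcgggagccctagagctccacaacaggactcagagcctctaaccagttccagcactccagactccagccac
Cxcl2, chr5:90903649-90903948, plus strand: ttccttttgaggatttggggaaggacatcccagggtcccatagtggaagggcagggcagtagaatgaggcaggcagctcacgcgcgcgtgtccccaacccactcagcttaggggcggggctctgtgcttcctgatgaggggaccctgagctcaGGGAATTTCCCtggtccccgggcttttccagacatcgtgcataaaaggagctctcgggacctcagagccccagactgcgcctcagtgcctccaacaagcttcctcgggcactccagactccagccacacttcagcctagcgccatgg
Cxcl10, chr5:92348840-92349139, minus strand: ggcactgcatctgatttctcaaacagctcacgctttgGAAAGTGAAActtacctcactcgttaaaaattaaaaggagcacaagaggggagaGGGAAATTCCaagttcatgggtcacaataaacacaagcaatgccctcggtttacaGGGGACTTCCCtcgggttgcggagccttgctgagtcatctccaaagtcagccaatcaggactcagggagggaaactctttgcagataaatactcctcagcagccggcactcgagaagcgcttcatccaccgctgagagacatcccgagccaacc
Ccl8, chr11:82114935-82115234, plus strand: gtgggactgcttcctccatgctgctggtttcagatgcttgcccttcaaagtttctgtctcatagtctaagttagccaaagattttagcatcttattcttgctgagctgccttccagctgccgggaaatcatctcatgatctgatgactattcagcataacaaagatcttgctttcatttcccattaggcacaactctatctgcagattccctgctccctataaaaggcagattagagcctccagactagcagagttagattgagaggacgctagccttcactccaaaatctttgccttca
Ccl28, chr13:119623569-119623868, plus strand: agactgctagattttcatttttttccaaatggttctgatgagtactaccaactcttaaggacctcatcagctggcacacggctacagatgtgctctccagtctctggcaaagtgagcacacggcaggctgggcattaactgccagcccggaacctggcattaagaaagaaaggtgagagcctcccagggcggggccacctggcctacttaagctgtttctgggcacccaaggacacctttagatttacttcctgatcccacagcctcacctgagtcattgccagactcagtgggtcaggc

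The first comparison, PBS-treated Pcy mice against wild type, asks how the family is expressed in the cystic kidney. Most members were higher in Pcy kidneys, and a single ligand, Ccl28, was lower. The 5 members with the largest log2 fold changes were Ccl8 (4.75), Cxcl5 (4.25), Ccl12 (4.09), Ccl2 (3.97) and Ccl7 (3.95). None of these 5 had 10 counts in every wild-type library, so each needed Pcy mice to meet the minimum. Where wild-type levels were near 0 a single mouse moved the value: Cxcl5 was 5.12 without wild-type mouse 2, and Ccl12 was 4.87 and Ccl20 rose from 3.40 to 5.29 without wild-type mouse 3. Called means an adjusted p under 0.05 (edgeR quasi-likelihood test, Benjamini-Hochberg over 15185 genes) with an absolute log2 fold change over 0.5. By this rule 36 of the 43 members were higher in PBS mice, where 24.6% of all genes tested were. Lower was 1 member, where 17.8% of all genes were, and 6 were not called. The median log2 fold change was 1.86 over the members and 0.010 over all genes. In 27 members every PBS mouse lay above every wild-type mouse, which held for 20.3% of all genes. These 27 include members that needed Pcy mice to meet the minimum, such as Ccl3, Ccl7, Ccl8 and Ccl12. Of the 43, 12 had no wild-type library at 10 counts and met the minimum through the Pcy mice alone, which favoured a higher level in Pcy mice: Ccl3, Ccl7, Ccl11, Ccl17, Ccl20, Ccr1, Ccr6, Cxcl2, Cxcl5, Cxcl17, Cxcr5 and Xcl1. Ccl2, Ccl4, Ccl8, Ccl12, Ccl22, Ccr7, Ccr9, Cxcl11, Cxcl13 and Ackr2 had 10 counts in some but not all 5 wild-type libraries. They needed Pcy mice as well. Among the 21 members with at least 10 counts in all 5 wild-type libraries, 16 were called higher and 1 lower, with a median log2 fold change of 1.49. In whole-kidney RNA, more cells of a type and more RNA per cell cannot be told apart. Within index series 1, 2 and 3 alone, 34, 28 and 28 members were called, and 36.7%, 34.2% and 31.9% of all genes.

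**Figure D2:**
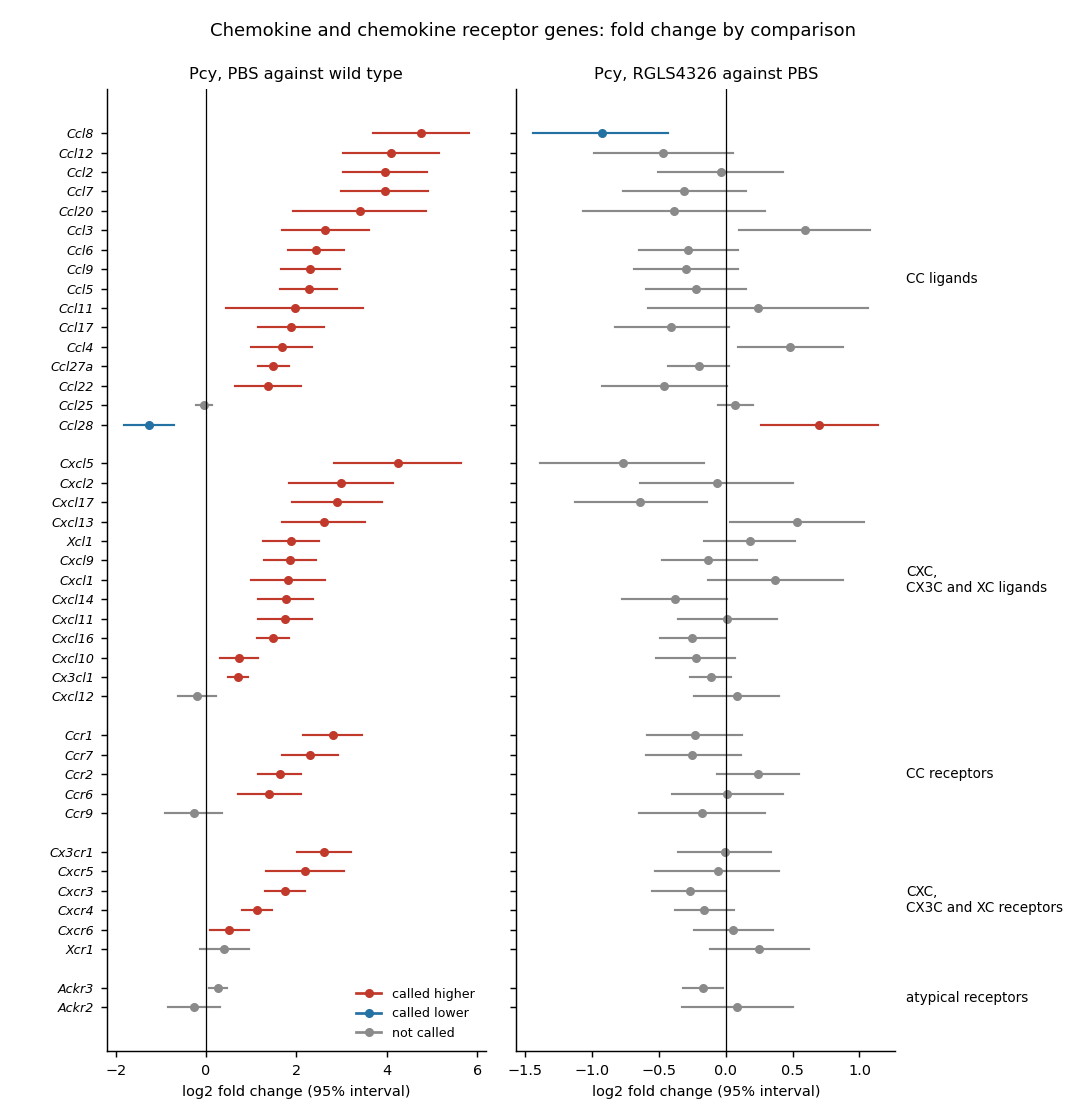
Points are log2 fold changes of the members (1 not shown) with 95% intervals, for PBS-treated Pcy against wild type on the left and RGLS4326 against PBS on the right, on different scales. Red and blue mark called higher and lower. On the left most members are red, while on the right Ccl8 is blue and Ccl28 is red.

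Among the CC ligands, 14 of 16 were called higher, or 9 of 11 leaving out those with no wild-type library at 10 counts. Ccl2, Ccl4, Ccl8, Ccl12 and Ccl22 are among these 11, though they too needed Pcy mice to meet the minimum. Ccl8, a monocyte chemoattractant that in the mouse also binds Ccr8, was the most changed. Wild-type mice 1 to 5 had 0, 0.594, 0.177, 0.484 and 0.662 CPM of Ccl8, and PBS mice had 3.99 to 14.5 CPM with a median of 10.5. The groups did not overlap, and the lowest PBS mouse was well above the highest wild-type mouse. The log2 fold change was 4.75 (SE 0.541, adjusted p = 1.9e-08), or 26.9-fold. Ccl2, the main monocyte attractant of inflamed tissue, measured 0.118, 1.19, 0.769, 0.303 and 0.903 CPM in wild-type mice 1 to 5 and 5.74 to 15 CPM in PBS mice (median 9.06). Every PBS mouse was above every wild-type mouse, with a log2 fold change of 3.97 (SE 0.475, adjusted p = 3.5e-08). Ccl7, another ligand of Ccr2, was at 0 to 0.416 CPM in wild type and 1.94 to 5.43 CPM in PBS mice, 15.5-fold higher (adjusted p = 5.4e-08). Ccl12, the rodent monocyte attractant next to them, was 17-fold higher without overlap (adjusted p = 1.5e-07), and 29.1-fold without wild-type mouse 3. The eotaxin gene Ccl11 overlapped between groups, since PBS mice ranged from 0.0424 to 2.89 CPM, and its call (log2 fold change 1.96, adjusted p = 0.0231) was lost without wild-type mouse 1 or 5 or PBS mouse 6, with the replicate number as a block and within each index series.

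The other CC ligands called higher had smaller differences than Ccl8, Ccl12, Ccl2 and Ccl7. Ccl5, which draws T cells and monocytes, averaged 1.99 ± 0.979 CPM (SD, n = 5) in wild type and 9.61 CPM in PBS mice, without overlap (4.82-fold, adjusted p = 3.4e-07). Its neighbours Ccl6 and Ccl9, myeloid chemokines of rodents that bind Ccr1, were 5.4-fold and 4.96-fold higher. Ccl3 and Ccl4, inflammatory chemokines made by macrophages, were 6.22-fold and 3.19-fold higher. Ccl17 and Ccl22, ligands of Ccr4, were 3.7-fold and 2.59-fold higher, and Ccl22 overlapped between groups. Ccl20, the Ccr6 ligand, was at 0 in most wild-type mice and at 0.149 to 1.77 CPM in PBS mice (log2 fold change 3.40, SE 0.753). The groups overlapped through wild-type mouse 3, at 0.296 CPM from 5 reads, without which the log2 fold change was 5.29. Ccl27a, an epithelial chemokine best known from skin, rose from 2.94 ± 0.562 CPM to 8.26 CPM without overlap (2.81-fold, adjusted p = 3e-08). Ccl27a has a near-identical copy, Ccl27b, and one of its exons overlaps Il11ra1 on the opposite strand, and the strand setting of the read counting is not given in the sources used here, so its level is uncertain. Ccl25, the gut and thymus ligand of Ccr9, was not called, with means of 3.81 and 3.69 CPM and a 95% interval of the log2 difference from -0.22 to 0.13.

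Ccl28 went the other way. Ccl28 is a mucosal epithelial chemokine whose receptors are Ccr10 and Ccr3, and it had the highest level per exon length in wild-type kidney. Wild-type mice 1 to 5 had 276, 412, 251, 259 and 194 CPM, and PBS mice had 60.8 to 288 CPM with a median of 87.5. Of the 12 PBS mice, 10 were below every wild-type mouse, and PBS mice 4 and 6 lay within the wild-type range at 288 and 215 CPM. The log2 fold change was -1.26 (SE 0.287, adjusted p = 0.00026), a level 0.418 times that of wild type. The call was lost within index series 1 alone and series 3 alone.

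**Figure D3:**
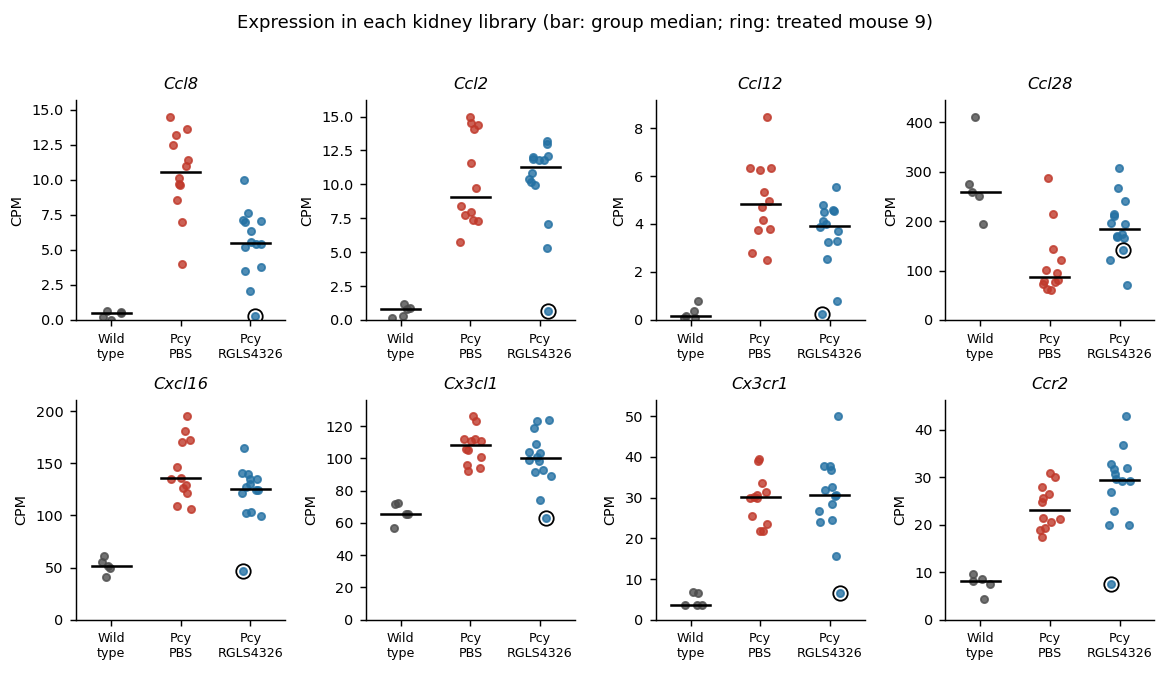
Each point is 1 mouse and the vertical axis is CPM from 0, in a panel for each of 8 members, with bars at group medians and a ring around treated mouse 9. Ccl8 medians are 0.484, 10.5 and 5.48 CPM and Ccl28 medians 259, 87.5 and 185 CPM in wild type, PBS and RGLS4326, and the Pcy groups overlap in each panel.

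Of the ligands in the CXC, CX3C and XC classes, 12 of 13 were called higher, or 8 of 9 leaving out those with no wild-type library at 10 counts. Cxcl11 and Cxcl13 are among these 9, though they too needed Pcy mice to meet the minimum. Cxcl16, a transmembrane chemokine of macrophages and epithelium that binds Cxcr6, had the highest level per exon length in PBS mice. Wild-type mice 1 to 5 had 49.3, 51.1, 55, 61 and 40.5 CPM and PBS mice 106 to 195 CPM (median 135). The groups did not overlap, and the log2 fold change was 1.49 (SE 0.182, adjusted p = 4.8e-08). Part of the Cxcl16 exons overlap Zmynd15 on the opposite strand. Cx3cl1, the membrane-bound fractalkine, differed little in fold but with small spread, at 56.7 to 72.2 CPM in wild type and 92.3 to 126 CPM in PBS mice (1.62-fold, adjusted p = 2e-06). Cxcl14, an epithelial chemokine with a disputed receptor, averaged 14.3 ± 5.8 and 48.2 CPM (3.38-fold).

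The neutrophil chemokines, which act through Cxcr2, were low. Cxcl5 was at 0 to 0.178 CPM in wild type and 0.349 to 3.05 CPM in PBS mice, without overlap (19-fold, or 34.8-fold without wild-type mouse 2; log2 SE 0.716, adjusted p = 5.1e-06). Cxcl2 was 7.89-fold and Cxcl1 3.52-fold higher, and in both genes the lowest PBS mouse fell within the wild-type range. The interferon-induced ligands of Cxcr3 differed in degree. Cxcl9 was 3.63-fold higher without overlap (adjusted p = 2e-06), Cxcl11 was 3.35-fold higher, and Cxcl10 was 1.66-fold higher with overlapping groups (adjusted p = 0.00351). Cxcl10 shares exon sequence with Art3, and Cxcl11 with Gm2673, on the opposite strand. Cxcl13, which organises B cell follicles through Cxcr5, was at 0.177 to 0.903 CPM in wild type and 1.12 to 3.92 CPM in PBS mice (log2 fold change 2.60, SE 0.472, adjusted p = 1.5e-05). Xcl1, made by T and NK cells, was 3.66-fold higher and the mucosal Cxcl17 was 7.47-fold higher, both from under 0.4 CPM. Cxcl12, the constitutive stromal ligand of Cxcr4, was not called, with means of 143 ± 31.6 and 124 CPM and a log2 interval from -0.63 to 0.23.

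Receptors were higher as well. Of the 6 CC receptors, 5 were called higher, or 3 of 4 on the same terms. Ccr7 and Ccr9 are among these 4, though they too needed Pcy mice to meet the minimum. Ccr2, the monocyte receptor of Ccl2 and Ccl7, measured 8.2, 4.34, 8.58, 9.63 and 7.53 CPM in wild-type mice 1 to 5 and 17.4 to 30.9 CPM in PBS mice (median 23.1). The groups were separate, with a log2 fold change of 1.63 (SE 0.245, adjusted p = 9.2e-07). Ccr1 of myeloid cells and Ccr7 of lymph node homing were 7-fold and 4.89-fold higher without overlap. Ccr6 was 2.63-fold higher with overlap. Ccr9, whose exons overlap other genes on both strands, was under 1 CPM in every wild-type and PBS mouse and was not called (log2 interval -0.90 to 0.36).

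Of the 6 receptors of the other classes, 5 were called higher, or 4 of 5 on the same terms. Cx3cr1, the fractalkine receptor of monocytes and resident macrophages, was the receptor with the highest level per exon length in PBS mice after the atypical Ackr3 (6.6 CPM per kilobase). Wild-type mice 1 to 5 had 3.66, 3.62, 6.63, 6.9 and 3.55 CPM of Cx3cr1 and PBS mice 21.7 to 39.5 CPM (median 30.1). The groups were far apart, with a log2 fold change of 2.61 (SE 0.299, adjusted p = 2.1e-08). Cxcr5 of B cells was 4.56-fold higher, Cxcr3 of activated T cells 3.36-fold and Cxcr4, which is broadly expressed on leukocytes, 2.18-fold, each without overlap. As for Ccl27a, exons overlap a gene on the opposite strand in Cxcr5 (Bcl9l), Cx3cr1 (Gm33858), Ccl25 (Elavl1) and Xcl1 (Gm20743), so the levels of these members, and of Cxcl10, Cxcl11, Cxcl16 and Ccr9, are uncertain in the same way. Cxcr6 was called on a log2 fold change of 0.51 (SE 0.217, adjusted p = 0.035) and left the call with any of 8 mice removed, by size or by p. Xcr1 of cross-presenting dendritic cells was not called (1.16 and 1.53 CPM, log2 interval -0.14 to 0.94). Neither atypical receptor was called. Ackr3, which takes up Cxcl12, averaged 76.2 ± 9.52 CPM in wild type and 91.7 CPM in PBS mice. Its log2 fold change of 0.27 (SE 0.104) had an adjusted p of 0.0213 but was under the size limit. Ackr2, a scavenger of inflammatory CC chemokines, was at 0.574 and 0.471 CPM with an interval from -0.84 to 0.30.

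Divided by exon length, the order of levels changed between groups. In wild type Ccl28 led with 57.5 CPM per kilobase, followed by Ackr3 (22.8), Cxcl12 (17.5), Cxcl16 (17) and Cx3cl1 (16.8), of which the last 3 differed by less than the spread of Cxcl12 between mice. In PBS mice Cxcl16 led with 47.6 CPM per kilobase, ahead of Ackr3 (27.4), Cx3cl1 (27.3), Cxcl14 (26.4), Ccl28 (24) and Ccl8 (20.4). The levels of Ackr3, Cx3cl1, Cxcl14 and Ccl28 differed there by less than the spread of Ccl28 between mice. In treated mice Cxcl16 (40) and Ccl28 (38.9) stood at the top, again closer than the spread of Ccl28. Ccl8 stood at 0.751 CPM per kilobase in wild type and at 10.7 in treated mice.

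Members also share position. On GRCm38, 25 of the 43 lie in 6 clusters of neighbours less than 300 kb apart. On chromosome 11, Ccl2, Ccl7, Ccl11, Ccl12 and Ccl8 lie between 82035571 and 82116799, and all 5 were higher in PBS mice, with log2 fold changes from 1.96 to 4.75. The neighbouring cluster of Ccl5, Ccl9, Ccl6, Ccl3 and Ccl4 (83525778 to 83664683) was higher in all 5, from 1.67 to 2.64. On chromosome 5, Cxcl5, Cxcl1 and Cxcl2 ranged from 1.82 to 4.25 and Cxcl9, Cxcl10 and Cxcl11 from 0.73 to 1.86. On chromosome 8, Ccl22, Cx3cl1 and Ccl17 ranged from 0.70 to 1.89. Of these, Ccl3, Ccl7, Ccl11, Ccl17, Cxcl2 and Cxcl5 met the minimum through the Pcy mice alone, which favoured a higher level there. Ccl2, Ccl4, Ccl8, Ccl12, Ccl22 and Cxcl11 also needed Pcy mice to meet it. The receptor cluster on chromosome 9 was mixed, since Ccr1, Ccr2 and Cxcr6 were called higher and Ccr9 and Xcr1 were not. Of these, Ccr1 met the minimum through the Pcy mice alone, and Ccr9 also needed them.

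Markers of several cell types moved with these genes. The T cell markers were called higher in 10 of 10 and summed to 5.96 to 10.4 CPM in wild type and 43.7 to 60.4 CPM in PBS mice. Of 9 macrophage and monocyte markers 6 were higher and 2 lower, with sums of 217 to 239 CPM and 381 to 599 CPM. Fibroblast and mural markers were higher in 5 of 7 (139 to 183 and 407 to 875 CPM), dendritic cell markers in 4 of 6 (9.68 to 19 and 23.5 to 45.6 CPM) and NK cell markers in 2 of 5 (2.24 to 3.79 and 3.96 to 6.56 CPM). B and plasma cell markers were higher in 6 of 8 and lower in 1, Igj, and their sums overlapped (40 to 171 and 26.7 to 75.1 CPM). Of 3 neutrophil markers tested 1 was higher (sums 2.2 to 5.27 and 4.15 to 8.52 CPM), and the granule genes Mpo and Camp averaged under 0.05 CPM in at least 1 group each. Endothelial markers were lower in 3 of 8 and higher in 0 by edgeR and by DESeq2 (Egfl7 had an adjusted p of 0.0109 but was under the size limit), with sums of 280 to 403 and 209 to 388 CPM, and nephron and collecting duct markers were higher in 1 of 10 and lower in 4. The part of these shifts in the chemokine results was not tested.

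**Figure D4:**
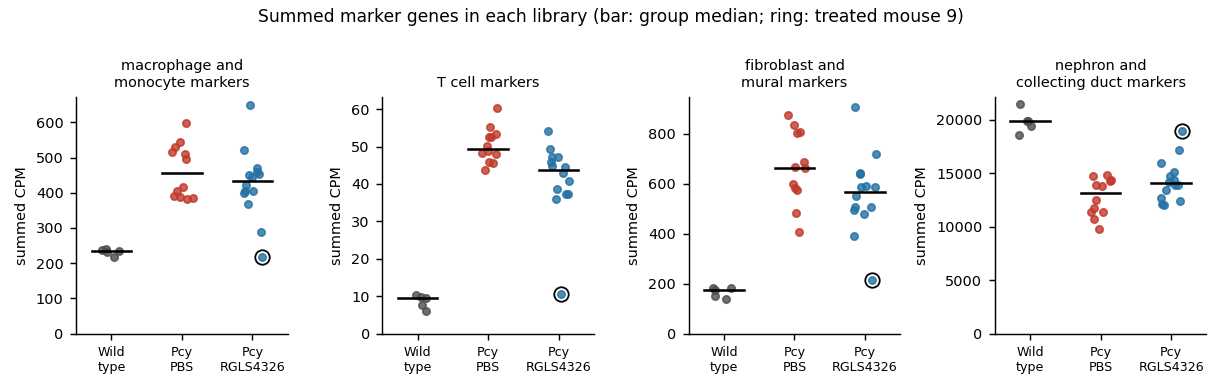
Summed CPM of 4 marker lists in each mouse, from 0, with group medians as bars and a ring around treated mouse 9. T cell sums are 5.96 to 10.4 CPM in wild type and 43.7 to 60.4 CPM in PBS mice, and mouse 9, at 10.7 CPM, lies beside the wild-type mice.

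Genes that act before and after the receptors moved in the same comparison. Among 26 tested inducers of chemokine genes (cytokines, their receptors and the NF-kappa B and interferon factors), 23 were called higher and 0 lower by edgeR and DESeq2 (Il17ra, the interleukin 17 receptor gene, was lower with an adjusted p of 3.2e-07 but under the size limit), with a median log2 fold change of 1.11. Tlr2, the receptor of bacterial lipoproteins, rose from 3.55 to 14.2 CPM, and the cytokine gene Tnf from 0.251 to 2.28 CPM (log2 fold change 3.16, SE 0.383, adjusted p = 4.1e-08). Of 35 genes for signalling from chemokine receptors 20 were higher and 1 lower (median 0.86). The gene lower was Gnai1, an inhibitory G protein subunit, at 80.1 and 48.2 CPM, while Jak3 and the oxidase subunit gene Ncf1 were higher (log2 fold change 1.02 and 2.45). Of 8 tested chemokine family genes under other symbols 5 were higher and 1 lower, among them Pf4, the platelet CXC ligand, at 0.479 and 2.31 CPM.

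The second comparison, RGLS4326 against PBS in Pcy mice, asks how the family responded to treatment. Ccl8 was lower and Ccl28 was higher in treated mice, and no receptor was called. Of the 43 members 1 was called higher and 1 lower, while 0.935% and 1.22% of all genes were, or 2.15% in either direction. With an adjusted p under 0.05 and no size limit, the members called were again 2 (4.65%), while 15.8% of all genes were. With 1 mouse left out the share of 2.15% ranged from 0.514% (PBS mouse 10) to 3.79% (treated mouse 2). It moved by over 1.5 times without any one of PBS mice 2, 3, 4, 5, 9 or 10 or treated mice 2, 3, 6, 8, 9, 10 or 13, and was 0.956% without mouse 9. The log2 difference was positive in 16 members (37.2%) and negative in 27 (62.8%), where 48.9% and 51.1% of all genes were, with a median of -0.13 against -0.004 over all genes. The groups overlapped in every member and in every other gene tested, so 0% separated them in either direction. An unadjusted p under 0.05 was found in 8 members (18.6%) and in 36.8% of all genes.

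Treated mice had 0.307 to 10 CPM of Ccl8 (median 5.48), against 3.99 to 14.5 CPM in PBS mice. All 14 treated mice were below the PBS median of 10.5, and 13 were above every wild-type mouse, mouse 9 being the exception at 0.307 CPM. The log2 difference was -0.93 (SE 0.257, 95% interval -1.44 to -0.43, adjusted p = 0.0226), so treated mice had 0.523 times the PBS level. Without mouse 9 it was -0.83 (adjusted p = 0.0158). The call held with each of the 31 mice left out in turn, with adjusted p-values up to 0.0497. It was lost with the replicate number as a block, where the difference was -1.06 (SE 0.318, adjusted p = 0.0641). Within index series 1, 2 and 3 alone the log2 difference was -0.41, -1.60 and -0.89, none of them called (adjusted p = 1, 0.237 and 0.119). The other genes of the cluster had log2 differences of -0.47 (Ccl12), -0.31 (Ccl7), -0.04 (Ccl2) and 0.24 (Ccl11), none of them called, and a difference between Ccl8 and these genes was not tested.

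Ccl28 moved towards the wild-type level. Treated mice had 69.7 to 307 CPM with a median of 185, against a PBS median of 87.5 CPM. The groups overlapped widely, but 13 of 14 treated mice were above the PBS median, and 7 were below every wild-type mouse. The log2 difference was 0.70 (SE 0.225, 95% interval 0.26 to 1.14, adjusted p = 0.0383), or 1.62-fold. It was 0.72 without mouse 9 (adjusted p = 0.047) and 0.37, 0.60 and 1.19 within index series 1, 2 and 3, none of them called (adjusted p = 1, 0.259 and 0.182). The call was lost when any one of PBS mice 2, 3, 5, 9 or 10 or of treated mice 3, 6, 8, 10 or 13 was left out (adjusted p from 0.054 to 0.0769). It was also lost when only the 2 groups were fitted (adjusted p = 0.0544) and with the replicate number as a block, where the difference was 0.74 (SE 0.223, adjusted p = 0.0644).

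The remaining members were not called. Those with an unadjusted p under 0.05 were Ccl3 (log2 difference 0.59, adjusted p = 0.0888), Ccl4 (0.48, 0.0869), Cxcl13 (0.53, 0.13), Cxcl5 (-0.77, 0.0785), Cxcl17 (-0.64, 0.0742) and Ackr3 (-0.17, 0.106). Of these, Ccl4 was called with mouse 9 left out (adjusted p = 0.0443), Cxcl5 without PBS mouse 4 (0.0396), and Cxcl17 without PBS mouse 1 (0.0313) or treated mouse 1 (0.047) or 11 (0.041). Ccl2 had nearly equal means of 10.3 and 10 CPM, with a 95% interval of the log2 difference from -0.51 to 0.43. Cx3cr1 averaged 29.7 and 29.6 CPM (interval -0.36 to 0.34), Ccr2 23.7 and 28 CPM (-0.07 to 0.55) and Ccr1 2.45 and 2.09 CPM (-0.59 to 0.12). For the abundant ligands, Cxcl16 averaged 144 and 121 CPM (-0.49 to -0.01, adjusted p = 0.136), Cx3cl1 107 and 99.2 CPM (-0.27 to 0.04) and Cxcl12 124 and 132 CPM (-0.24 to 0.40). The intervals of these 3 ligands stayed within 0.5 log2 units of 0.

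Few of the neighbouring genes were called with treatment. Among T cell markers 1 of 10 was lower, Cd2 (2.23 and 1.56 CPM, adjusted p = 0.0344), and the summed markers were 35.9 to 54.2 CPM in the treated mice other than mouse 9, which was at 10.7 CPM. Of these T cell markers 6 were lower at an unadjusted p under 0.05, and DESeq2 called 2. Macrophage, dendritic, B, NK, neutrophil, endothelial and fibroblast markers, the signalling genes and the inducers held 107 tested genes, of which edgeR and DESeq2 called 0 and 24 had an unadjusted p under 0.05, 16 of them lower. Over all genes tested, edgeR called 2.15%, and 36.8% had an unadjusted p under 0.05. Under the size limit but with an adjusted p under 0.05 were 2 signalling genes higher and 1 lower, and 1 inducer higher and 1 lower. Aqp2, the collecting duct water channel, was lower (1140 and 773 CPM, adjusted p = 0.0265). Pf4 was the 1 called gene among chemokine family genes under other symbols, at 2.31 CPM in PBS and 1.19 CPM in treated mice (log2 difference -0.96, SE 0.192, adjusted p = 0.00563). The part of these genes in the Ccl8 and Ccl28 results was not tested.

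Against wild type, most members were also higher in treated Pcy mice. Called higher were 37 of 43 members, where 20.3% of all genes were, and 0 were lower, where 11.3% of all genes were. DESeq2 also called 0 lower, and 0 were lower at an unadjusted p under 0.05. The selection of the 12 members with no wild-type library at 10 counts favoured a higher level here too. Of the 21 with at least 10 counts in all 5 wild-type libraries 17 were called higher. Within index series 1, 2 and 3 alone, 35, 0 and 25 members were called, and 32.6%, 2.45% and 16% of all genes, and series 2 holds mouse 9. PBS and treated mice share the wild-type mice in these 2 comparisons. Ccl8 had a log2 fold change of 3.82 (SE 0.538, adjusted p = 1.2e-06) and Ccl2 of 3.92 (SE 0.472, adjusted p = 2e-07). Ccl28 had one of -0.56 (SE 0.286, adjusted p = 0.0839), and it was called lower when only the 2 groups were fitted (-0.55, adjusted p = 0.0344) and without PBS mouse 4 (-0.56, adjusted p = 0.0458). Xcr1 averaged 1.82 CPM in treated mice (log2 fold change 0.65, adjusted p = 0.0376), and its difference from PBS mice was not called (0.25, adjusted p = 0.338). Its call against wild type was lost without any one of wild-type mice 2, 3 or 4 or treated mice 2, 4 or 13 (adjusted p up to 0.105), with only the 2 groups fitted and within each index series. With mouse 9 included, every treated mouse was above every wild-type mouse in 5 members (Ccl3, Ccl11, Cxcl17, Xcl1 and Cxcr3), as in 5.04% of all genes. Of these, Ccl3, Ccl11, Cxcl17 and Xcl1 met the minimum through the Pcy mice. Without mouse 9 this held for 26 members and 16.2% of all genes, and 9 of the 26 had no wild-type library at 10 counts. Leaving out all members with no such library, it held for 17 of 31. Some of these 31, such as Ccl8 and Ccl12, still needed Pcy mice to meet the minimum.

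Ligand and receptor levels were compared across mice for 14 of 18 listed pairs whose genes were both members, separately within PBS and treated mice, on log2(CPM + 1). Of these 28 relations 10 had a Benjamini-Hochberg adjusted permutation p under 0.05 by Pearson's r and 0 by Spearman's rho, where 7 had an unadjusted p under 0.05. In PBS mice (n = 12) they were Cxcl13 with Cxcr5 (r = 0.79, permutation p = 0.0021, adjusted p = 0.015, rho = 0.78, permutation p = 0.004), Ccl3 with Ccr1 and Cx3cl1 with Cx3cr1. Ccl3 with Ccr1 had r = 0.72 (permutation p = 0.011, adjusted p = 0.042) and rho = 0.66 (permutation p = 0.021). Cx3cl1 with Cx3cr1 had r = 0.68 (permutation p = 0.015, adjusted p = 0.043) and rho = 0.62 (permutation p = 0.035). Without the 2 mice farthest from the median ligand level r was 0.67, 0.55 and 0.65. The Ccl2 and Ccr2 levels had r = 0.11 in PBS mice (permutation p = 0.72) and rho = 0.23 (permutation p = 0.47).

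In treated mice 7 pairs passed by Pearson's r, and most of these rested on mouse 9. Ccl2 with Ccr2 had r = 0.88 (n = 14, permutation p = 0.0038, rho = 0.51, permutation p = 0.067), and without mouse 9 r was 0.48 (adjusted permutation p = 0.24). Ccl7 with Ccr2 went from r = 0.78 to 0.25 without it. Likewise lost were Cx3cl1 with Cx3cr1 (r from 0.84 to 0.68, adjusted permutation p = 0.086 without it), Cxcl13 with Cxcr5 (0.77 to 0.63, 0.093) and Cxcl10 with Cxcr3 (0.64 to 0.45, 0.27). Ccl3 with Ccr1 was 0.87 with mouse 9 and 0.86 without it (adjusted permutation p = 0.0067 and 0.023). Over all 28 relations the count was 2 without mouse 9, namely Ccl3 with Ccr1 in treated mice and Cxcl13 with Cxcr5 in PBS mice (adjusted p = 0.03), and 5 without treated mouse 6. Since the adjustment runs over all relations, Ccl3 with Ccr1 and Cx3cl1 with Cx3cr1 in PBS mice passed neither without mouse 9 (adjusted permutation p = 0.086 and 0.087) nor without treated mouse 6 (0.052 and 0.057). Each index series held only 4 or 5 Pcy mice of a group, so no r is given within a series. With levels centred within the series, and permuted within them, 4 of the 28 relations passed, namely Cxcl13 with Cxcr5 in PBS mice (r = 0.78, adjusted permutation p = 0.026), Cx3cl1 with Cx3cr1 in PBS (r = 0.82, 0.04) and treated mice (r = 0.82, 0.04), and Ccl3 with Ccr1 in treated mice (r = 0.82, 0.026), all with mouse 9 included. All these genes come from the same libraries, so depth and the mix of cells are shared by both axes.

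**Figure D5:**
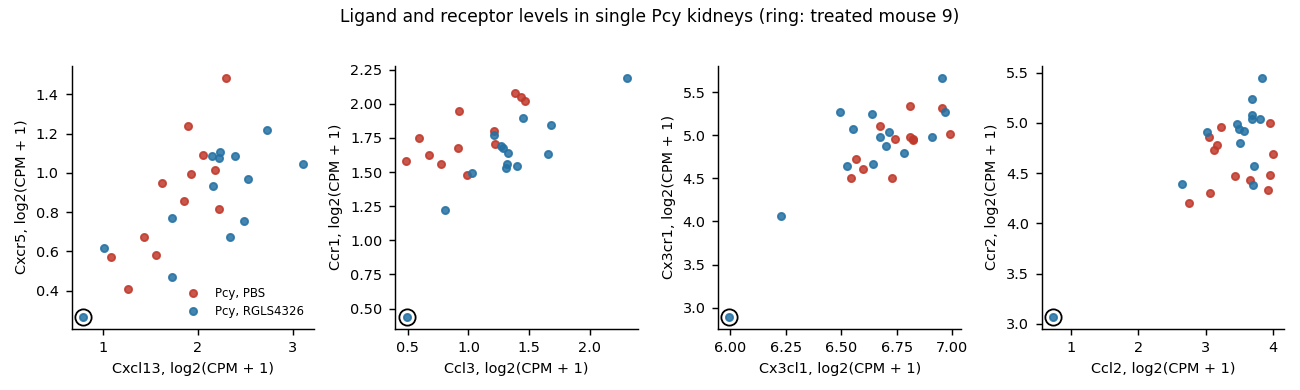
Ligand against receptor level, log2(CPM + 1), for 4 pairs in PBS (red) and treated (blue) Pcy mice, with a ring around treated mouse 9. In each panel mouse 9 is the lowest treated mouse on both axes, and Ccl2 and Ccr2 had a Pearson's r of 0.11 over the PBS mice.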

How the data were processed

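Kidney RNA-seq of 31 mice was used, grouped by the sample labels. Per the labels and the study's methods, the authors deposited raw read counts for 23509 genes per mouse, made with Trim Galore, STAR on GRCm38 and HTSeq 0.6.1 from uniquely mapped reads, without normalization; the annotation and strand setting are not given in the sources used here. Lines naming no gene (26.9% to 31.1% of reads) were left out. Genes passing filterByExpr (15185, with all 43 members) were fitted by edgeR 4.0.16 in R 4.3.3 with TMM scaling, 1 coefficient per group and all mice, and p-values were adjusted by Benjamini-Hochberg over all of them. CPM were computed with TMM-scaled totals. Standard errors were approximated from the fold change and its F statistic, and 95% intervals span 1.96 of them on either side. Correlations used 100000 two-sided permutations. Positions, exon lengths and 3′UTRs came from GENCODE M21 by symbol. In simulated counts for PBS against wild type (15105 genes), 85 of 99 genes changed by 1 log2 unit were recovered, and for RGLS4326 against PBS (15097 genes) 91 of 100. Of the unchanged genes, 7 and 4 were called. Changes under 1 log2 unit were not simulated, and far fewer genes were changed than were called for PBS against wild type. Alternatives covered the filter, scaling, DESeq2 1.42.0, mice fitted, index series, replicate numbers, thresholds, pseudocount and each mouse left out; leaving mouse 9 out of the count of separate groups was chosen after seeing the data. Members and lists were chosen with earlier results of these data known. Values are given for members past the test with treatment, in each class the 4 with the smallest p against wild type, those lower in PBS mice, the 5 most abundant and the genes of listed pairs; further members complete the ligand groups and were chosen after their values were seen. Of the other lists up to 3 genes per comparison with the smallest p are named. Other dosing groups of the study were not analysed here. The values of 1 member, which counts among the 43, are not reported here.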

Additional observations from a re-analysis of the deposited data

Results flagged for a closer look

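In 4 of 43 members 1 wild-type mouse lay apart from the other 4 by a gap that filled more than 0.710 of the group's range, and chance alone gives such a gap in about 1 of 20 groups. Cxcl14 was at 24.4 CPM in wild-type mouse 1. Wild-type mouse 5 had 0.903 CPM of Cxcl13 and 0.783 CPM of Ccl4, from 15 and 13 reads. Ccl20 was at 0.296 CPM in wild-type mouse 3, from 5 reads.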

How the results depend on the processing

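The count of members called was 37 for PBS against wild type (35 to 37 with 1 mouse left out) and 37 for RGLS4326 against wild type (33 to 38). Both stayed within 1.5 times of this under every alternative except index series 2 alone, where RGLS4326 against wild type called 0 by edgeR (24 with an unadjusted p under 0.05, and 2.45% of all genes called). There, Cxcl10 (-0.16) and Cxcr6 (-0.02) also changed sign. That series holds 2 wild-type mice and treated mouse 9, and the cause was not tested. For RGLS4326 against PBS, 2 members were called, and 1 to 3 with 1 mouse left out. The count was 0 with an absolute log2 fold change over 1 (8 with an unadjusted p under 0.05), 1 with only these groups fitted, and 0 in index series 1, 2 and 3 alone (3, 5 and 7 with an unadjusted p under 0.05), which hold fewer mice. No other filter, scaling or test moved it. Replicate numbers do not pair the mice: deviations of same-numbered PBS and treated mice had correlations from -0.47 to 0.51 (12 pairs). With the replicate block, 0 members were called for treatment (7 with an unadjusted p under 0.05; adjusted p = 0.0641 for Ccl8 and 0.0644 for Ccl28), 36 for PBS and 37 for RGLS4326 against wild type. The count of ligand and receptor relations was 10, and 2 to 10 with 1 mouse left out, and 4 with levels centred within index series, a setting chosen after seeing the data. Members under about 1 CPM rest on few reads.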
